A study of Mus musculus with 14 samples.

Results

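The mRNA levels of 55 genes of DNA replication and mitosis were examined in 5 populations of mouse forelimb bud cells. The genes were taken as a given list, 29 of S phase (Mcm2 to Blm) and 26 of G2 phase and mitosis (G2/M, Mki67 to Hmmr), by their symbols among the 24454 genes of a table of read counts. All 55 were in the table, and all 55 were among the 15125 genes that passed the filter on low counts. The list was made by gene function with no measured value as a criterion, although earlier results of these data were known when it was chosen. Each gene had at least 656 reads in any library.

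The series measured poly(A)+ RNA of cells sorted by flow cytometry from pooled forelimb buds of embryos of both sexes with a Sox9 IRES-EGFP reporter allele in a mixed Swiss Albino background. Before sorting into populations, dead cells (7AAD+) and cells with the endothelial, blood and epithelial markers CD31, Ter119, CD45, EpCam, Gr1 and CD11b were removed in all groups. The design compares mesenchymal cells at different steps toward cartilage: how do replication and mitosis genes differ among them? S9-JAG1+ limb bud mesenchymal progenitors (LMPs) were Sox9-negative, JAG1-positive and SCA-1-negative, S9-Pαhi LMPs were negative for Sox9, JAG1 and SCA-1 and high in PDGFRα, and S9-SCA-1+ cells were negative for Sox9 and JAG1 and positive for SCA-1. Osteochondrogenic progenitors (OCPs) were positive for Sox9 and high in PDGFRα. These 4 populations came from E10.5 embryos, with 3 libraries each except S9-SCA-1+ cells, which had 2 (replicates 2 and 3). The chondroblasts (3 libraries) carry the phenotype label S9+COL2+ and came from E11.5 embryos, and their gate in the labels is that of the OCPs. Population and stage therefore cannot be told apart in comparisons with chondroblasts.

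A dividing cell copies its DNA in S phase. Before that, the origin recognition complex, Cdc6 and Cdt1 load the Mcm2 to Mcm7 helicase on origins (licensing), and cyclin E with its kinase starts replication. Most of these genes are transcribed from late G1 phase on under E2F factors, which bind GC-rich letters near their starts. The genes of mitosis, such as Cdk1 with cyclins A and B, are transcribed later in the cycle, and their promoters are known for CCAAT boxes and the cell cycle genes homology region (CHR). In a limb bud the mesenchyme grows by division, while cells that begin to make cartilage are known to divide less.

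In all, each library had 20316583 to 29162751 counted reads (median 25554497.5), and levels are CPM, read counts brought to 1 common library total after TMM scaling. Libraries differed in the level of genes with long transcripts relative to genes with short ones. On the log2 scale this difference was 0.37 in OCP replicate 2, against -0.19 and 0.08 in the other OCPs, and 0.27, 0.29 and 0.36 in the chondroblasts. It was -0.24 and -0.34 in S9-SCA-1+ replicates 2 and 3, -0.22 to 0.01 in S9-JAG1+ LMPs and -0.28 to 0.08 in S9-Pαhi LMPs. S9-SCA-1+ replicate 3 had summed CPM of 7 red blood cell markers of 2679, against 96.9 in replicate 2 and at most 71.1 elsewhere. The 5 leukocyte markers summed to at most 0.71 CPM, the 5 endothelial markers to at most 8.65 and the 6 ectoderm markers to at most 10.8 in any library. The 4 glial markers summed to 9.41 to 29.2 CPM in OCPs and chondroblasts and to 3.90 to 7.98 in the other libraries, where Sox10 was at 0.18 CPM or less. Chondroblasts were highest in the 4 chondroblast markers, at 1835 to 2683 CPM, against 991.5 to 1577 in OCPs and 264 or less elsewhere, and also in the 5 osteochondral markers (632 to 968 CPM, against 551 to 597 in OCPs and 126 or less elsewhere). S9-JAG1+ LMPs were highest in the 5 distal markers (1810 to 2359 CPM, at most 709.5 elsewhere). In S9-SCA-1+ cells the 5 limb mesenchyme markers summed to 349.5 to 464 CPM and the 5 myogenic markers to 1490 to 1494 CPM, whereas elsewhere the former were at 1382 or more and the latter at 10.4 or less. In these bulk samples fewer dividing cells and less of an mRNA per dividing cell cannot be told apart.

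The promoters of both gene groups differed in the letters they hold. RefSeq windows of 300 bases (250 before to 50 after a start, GRCm38.p6) matched 46 of the 55 genes by symbol. Aurkb, Gins2, Rfc2, Ccna2, Ccne2, Tpx2, Exo1, Mcm4 and Gins1 had no entry. Both strands were searched, and matches were allowed to overlap. One of the E2F words TTTCCCGC, TTTGGCGC, TTTCGCGC or TTTGCCGC stood in 9 of 23 windows of S phase genes (39.1%) and in 1 of 23 of G2/M genes (4.35%), against 4.07% of 11743 windows of all genes tested and 2.32% of all 27025 windows. A CHR word (TTTGAA or TTCGAA) stood in 3 of 23 S phase windows (13%) and 18 of 23 G2/M windows (78.3%), against 13.7% for genes tested and 19.4% for all windows. The word CCAAT stood in 65.2% of S phase and 73.9% of G2/M windows, with 39% among genes tested and 37.9% among all windows. A CHR word together with CCAAT was present in 15 G2/M windows (65.2%) and 3 S phase windows (13%), against 6.05% of genes tested and 7.7% of all windows. Other replication genes (46 on a list, 38 with a window) had an E2F word in 28.9% and a CHR word in 26.3%, and other mitosis genes (55 on a list, 46 with a window) had them in 10.9% and 65.2%. A match is a run of letters and not evidence of binding. The 250 bases before the start of 4 genes show both kinds, each on its own strand from 5′ to 3′. These genes were picked because they hold the words there, so they are not typical of their groups. The windows of Mcm2, Pcna, Rrm2, Uhrf1 and Slbp, for example, had no E2F word. Starts are those of the RefSeq windows, which in these 4 genes lie inside the gene as annotated in GRCm38. Cdc6 is annotated from 98907709 on, upstream of the whole stretch printed for it. In Mcm5 (chr8:75109259-75109508, plus strand) and Cdc6 (chr11:98907901-98908150, plus strand) capitals mark E2F words. The Mcm5 words TTTCGCGC and, on the other strand, TTTGGCGC begin at -153 and -149 from the start and overlap, and the Cdc6 word TTTCCCGC lies at -138 on the other strand.
Mcm5: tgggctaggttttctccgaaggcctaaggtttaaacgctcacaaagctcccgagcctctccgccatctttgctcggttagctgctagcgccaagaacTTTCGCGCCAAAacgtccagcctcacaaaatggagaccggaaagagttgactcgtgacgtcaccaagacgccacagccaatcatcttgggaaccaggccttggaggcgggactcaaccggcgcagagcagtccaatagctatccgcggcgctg
Cdc6: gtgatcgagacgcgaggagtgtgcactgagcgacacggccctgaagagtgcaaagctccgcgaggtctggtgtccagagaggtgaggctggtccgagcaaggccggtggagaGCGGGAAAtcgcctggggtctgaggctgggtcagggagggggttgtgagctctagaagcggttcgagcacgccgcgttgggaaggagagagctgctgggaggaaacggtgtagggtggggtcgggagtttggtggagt
In Mki67 (chr7:135716380-135716629, minus strand) and Top2a (chr11:99024190-99024439, minus strand) capitals mark CHR words and CCAAT, read on either strand. Mki67 has CHR words at -116 and -98, and Top2a at -179, -140, -120 and -23.
Mki67: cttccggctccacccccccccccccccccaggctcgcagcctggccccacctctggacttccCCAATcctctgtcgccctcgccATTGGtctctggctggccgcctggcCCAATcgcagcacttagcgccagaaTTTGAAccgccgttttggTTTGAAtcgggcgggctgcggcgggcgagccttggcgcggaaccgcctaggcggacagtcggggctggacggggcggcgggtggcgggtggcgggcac
Top2a: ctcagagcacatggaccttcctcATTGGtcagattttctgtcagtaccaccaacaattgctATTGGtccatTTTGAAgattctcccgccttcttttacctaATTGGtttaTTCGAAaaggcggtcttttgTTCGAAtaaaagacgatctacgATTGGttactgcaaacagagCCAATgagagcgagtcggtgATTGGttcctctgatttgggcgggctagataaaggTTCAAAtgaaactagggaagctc

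As groups, the S phase genes were lowest in chondroblasts and highest in S9-JAG1+ LMPs, and the G2/M genes had the same order at both ends with smaller distances. The level of a group was taken as the mean log2 CPM of its genes, each centred on its mean over the 14 libraries, and it is given as a description with no test. For S phase it was 0.30 ± 0.03 (SD, n = 3) in S9-JAG1+ LMPs, 0.23 ± 0.04 (n = 2) in S9-SCA-1+ cells, 0.14 ± 0.11 (n = 3) in S9-Pαhi LMPs, -0.08 ± 0.11 (n = 3) in OCPs and -0.52 ± 0.05 (n = 3) in chondroblasts. The 3 chondroblast libraries, at -0.46, -0.56 and -0.52, were below all others, the next of which was OCP replicate 2 at -0.16. The 3 S9-JAG1+ libraries (0.27 to 0.32) were above both S9-SCA-1+ libraries (0.20 and 0.26) by a narrow gap. The next neighbours overlapped: S9-SCA-1+ cells overlapped S9-Pαhi LMPs (0.04 to 0.25), and S9-Pαhi LMPs overlapped OCPs (-0.16 to 0.05).

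For G2/M the level was 0.18 ± 0.02 in S9-JAG1+ LMPs (n = 3), 0.04 ± 0.12 in S9-Pαhi LMPs (n = 3), 0.03 ± 0.11 in OCPs (n = 3), -0.03 ± 0.01 in S9-SCA-1+ cells (n = 2) and -0.24 ± 0.06 in chondroblasts (n = 3). S9-Pαhi LMPs, OCPs and S9-SCA-1+ cells did not separate, with libraries from -0.09 to 0.13. The S phase level minus the G2/M level was above 0 in both S9-SCA-1+ libraries (0.25 and 0.28) and all S9-JAG1+ libraries (0.09 to 0.14), and below 0 in all OCPs (-0.23 to -0.04) and all chondroblasts (-0.36 to -0.20). S9-Pαhi LMPs had both signs (-0.07 to 0.24).

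**Figure D1:**
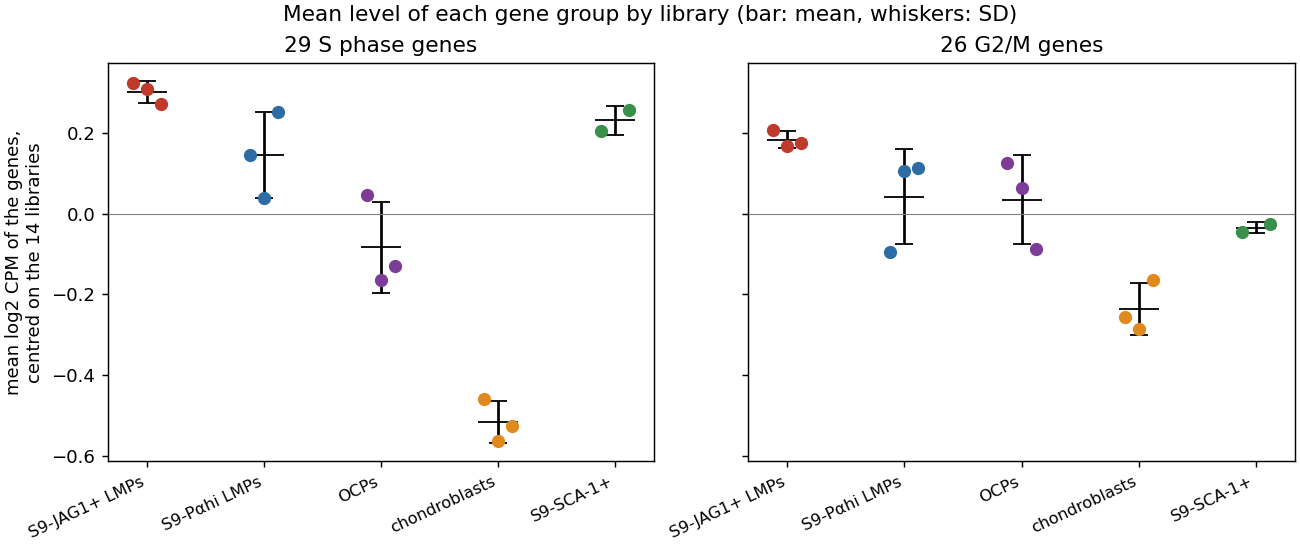
Mean log2 CPM of the 29 S phase genes (left) and the 26 G2/M genes (right) in each library, each gene centred on its mean over the 14 libraries, by population. Points are libraries, horizontal bars are means and whiskers are SD. The chondroblasts lie lowest in both panels, at -0.52 ± 0.05 and -0.24 ± 0.06.

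Chondroblasts had the lowest mean of the 5 populations for 29 of 29 S phase genes and for 19 of 26 G2/M genes. The other 7 G2/M genes were lowest in S9-SCA-1+ cells. The highest mean was in S9-JAG1+ LMPs for 19 S phase and 16 G2/M genes, in S9-SCA-1+ cells for 7 and 2, in S9-Pαhi LMPs for 3 and 3, in OCPs for 0 and 4 and in chondroblasts for 0 and 1. The ratio of the highest to the lowest population mean had a median of 1.85 for S phase genes, from 1.199 for Pola1 to 3.65 for Ccne1, and of 1.45 for G2/M genes, from 1.22 for Kif11 to 1.86 for Cdc20. In edgeR's quasi-likelihood F test of any difference among the 5 populations, 29 of 29 S phase and 21 of 26 G2/M genes passed (adjusted p no higher than 0.1), where 74.8% of all genes tested did. The 5 that did not pass were Mki67, Cenpe, Ube2c, Anln and Hmmr. Per length, levels of both groups were alike, with a median over all libraries of 51.5 CPM per kb of exon for S phase genes and 52.5 for G2/M genes. Pcna (241) and Top2a (179) were the highest of each group and Ccne2 (14.4) and Hmmr (24.2) the lowest on that scale.

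**Figure D2:**
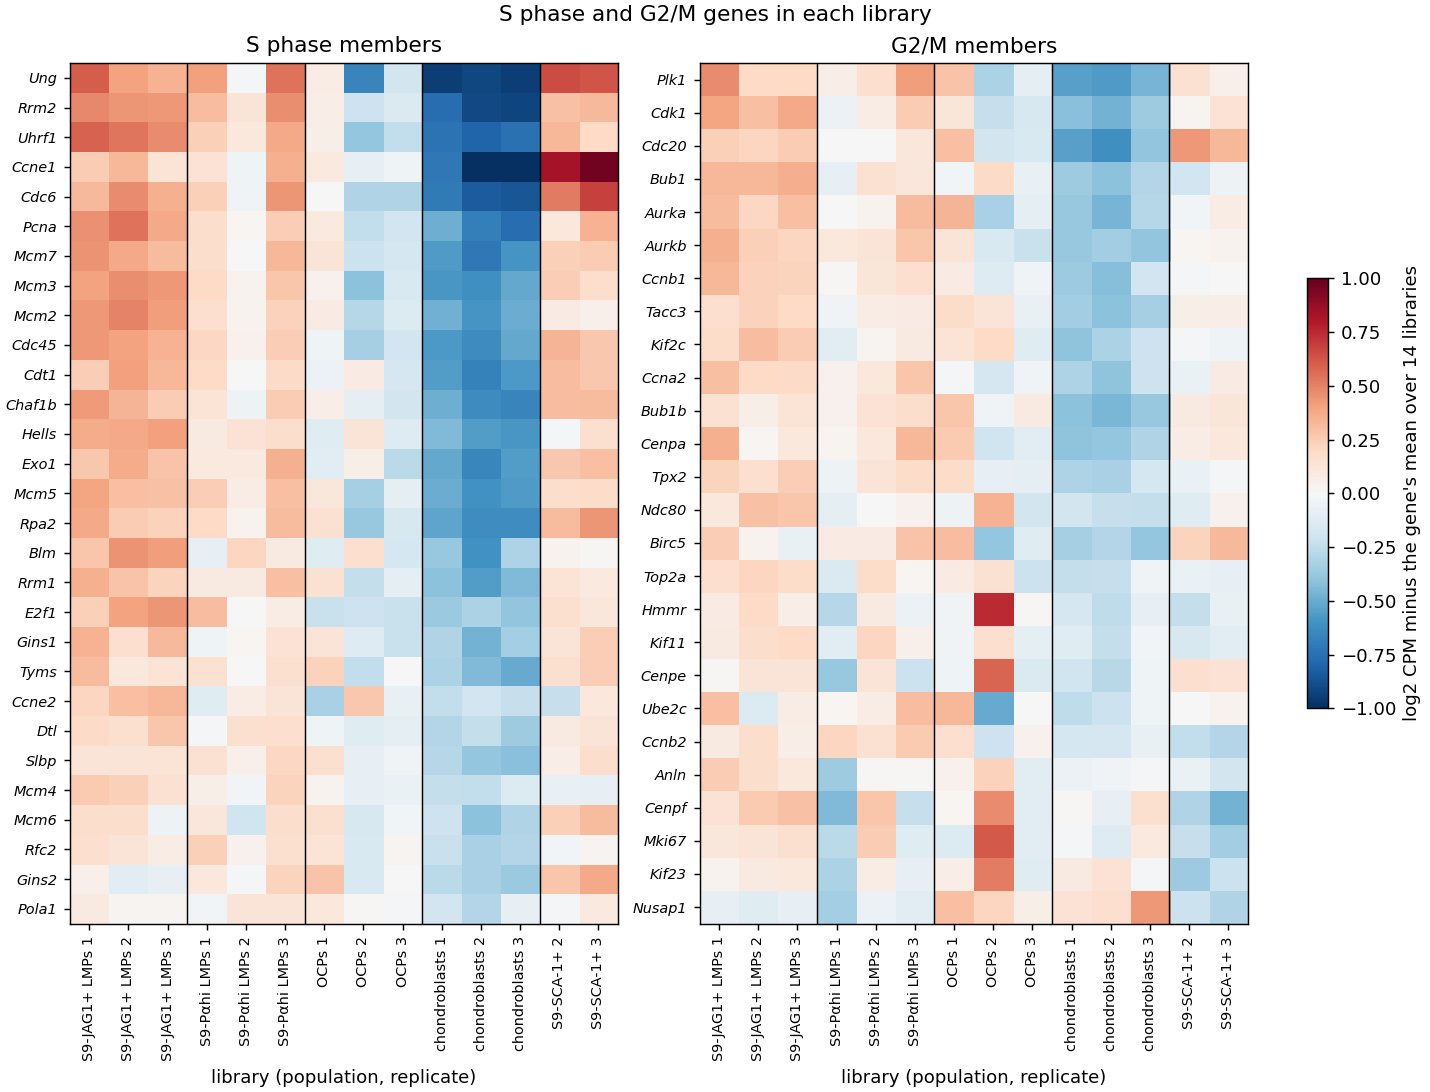
Level of each S phase gene (left) and G2/M gene (right) in each of the 14 libraries, as log2 CPM minus the gene's mean over all libraries, with rows sorted by the difference between chondroblasts and S9-JAG1+ LMPs. Colours end at -1 and 1, so values beyond are drawn as these. The 3 chondroblast columns are blue in nearly all S phase rows, and OCP replicate 2 is red for Hmmr, Cenpe, Mki67 and Kif23.

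Between the ends of the series, chondroblasts and S9-JAG1+ LMPs, all 29 S phase genes were called lower in chondroblasts. Here and in all pairs of populations, a call means that the adjusted p from edgeR's test did not exceed 0.1. Of all genes tested, 30.5% were called lower and 35.4% higher in this comparison. The median log2 fold change of the S phase genes was -0.88, against 0.05 over all genes tested. In the other direction 0 S phase genes were called, with 0 at an unadjusted p under 0.05 and 0 in DESeq2. The ranges of both populations did not overlap for any of the 29. How often ranges were apart among all genes tested was not counted, here or in the comparisons below. The study also used a fold limit of 1.2 on the log2 scale in either direction. The calls of 4 genes, Ung, Rrm2, Uhrf1 and Ccne1, were past it, beside 4.17% of all genes tested that were called lower and 15.2% called higher past that limit.

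Of these 4, Ung and Rrm2 were grouped as nucleotide genes, Uhrf1 as a chromatin gene and Ccne1 as a regulator of entry into S phase. Ung (chr5:114130366-114139321 in GRCm38), a glycosylase that removes uracil from DNA, was at 75.2, 65.5 and 62.95 CPM in S9-JAG1+ LMPs, 65.7, 49.1 and 72.03 in S9-Pαhi LMPs, 52.04, 31.4 and 43.6 in OCPs, 25.8, 26.3 and 25.8 in chondroblasts, and 77.9 and 76.5 in S9-SCA-1+ cells. The chondroblast values were below those of all other libraries, and the log2 fold change against S9-JAG1+ LMPs was -1.39 ± 0.16, adjusted p = 7.05e-06 (SE throughout). Rrm2, the regulated subunit of ribonucleotide reductase (chr12:24708254-24714146), was at 521, 505 and 503 CPM in S9-JAG1+ LMPs, 462, 407 and 513 in S9-Pαhi LMPs, 390.1, 323 and 337 in OCPs, 220, 199 and 197 in chondroblasts, and 455 and 466 in S9-SCA-1+ cells. Uhrf1, which reads hemimethylated DNA behind the fork (chr17:56303337-56323486), was at 509, 488 and 469 CPM in S9-JAG1+ LMPs, 398, 363 and 438 in S9-Pαhi LMPs, 351, 257 and 285 in OCPs, 202, 193 and 201 in chondroblasts, and 424 and 387 in S9-SCA-1+ cells. Both were below all other libraries in chondroblasts, with -1.31 ± 0.09, adjusted p = 6.90e-08 for Rrm2 and -1.30 ± 0.11, adjusted p = 2.10e-07 for Uhrf1. Of the 50-base words of Uhrf1 transcripts 17.9% also occur in other genes, foremost the pseudogene Gm5648, so that its counts are less certain. Ccne1, cyclin E1 (chr7:38097984-38107490), was at 139, 147 and 128 CPM in S9-JAG1+ LMPs, 129, 113 and 149 in S9-Pαhi LMPs, 125, 110.2 and 113 in OCPs, 71.2, 54.8 and 53.1 in chondroblasts, and 208 and 228 in S9-SCA-1+ cells. It had the widest span of all 55 genes, lowest in chondroblasts and highest in S9-SCA-1+ cells with no overlap with any other population at either end, and its fold change in chondroblasts against S9-JAG1+ LMPs was -1.21 ± 0.12, adjusted p = 1.56e-06.

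All 11 licensing and helicase genes were lower in chondroblasts than in S9-JAG1+ LMPs, with log2 fold changes from -1.18 for Cdc6 to -0.28 for Gins2 (median -0.93). Cdc6, a loader of the Mcm helicase, was at 89.7, 99.7 and 91.7 CPM in S9-JAG1+ LMPs, 84.9, 69.99 and 97.4 in S9-Pαhi LMPs, 71.6, 58.3 and 58.4 in OCPs, 43.9, 40.3 and 39.7 in chondroblasts, and 103 and 115 in S9-SCA-1+ cells. Mcm2, a subunit of that helicase, was at 538, 561 and 532 CPM in S9-JAG1+ LMPs, 446, 408 and 468 in S9-Pαhi LMPs, 421, 326 and 361 in OCPs, 285, 264 and 282 in chondroblasts, and 421 and 411 in S9-SCA-1+ cells. Mcm5, another subunit, whose promoter is printed above, was at 504, 473 and 469.5 CPM in S9-JAG1+ LMPs, 456, 403 and 473 in S9-Pαhi LMPs, 415, 306 and 359 in OCPs, 272, 253 and 259 in chondroblasts, and 432 and 436 in S9-SCA-1+ cells. In all 3 the chondroblast libraries were the lowest of the 14 (-1.18 ± 0.12, -0.97 ± 0.09 and -0.88 ± 0.10 against S9-JAG1+ LMPs). Mcm3 (-1.003 ± 0.10) and Mcm7 (-1.01 ± 0.10) moved by about as much, and Mcm4 (-0.42 ± 0.08) and Mcm6 (-0.41 ± 0.11) by less. Cdt1, Cdc45 and Gins1 were at -0.93 ± 0.09, -0.97 ± 0.09 and -0.65 ± 0.10. Gins2 is uncertain, since 67.3% of its exon bases lie under antisense exons of Gse1 and the use of strand in counting is not stated.

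Of the fork genes, the sliding clamp gene Pcna moved most. Pcna was at 399, 423 and 377 CPM in S9-JAG1+ LMPs, 327, 294 and 344 in S9-Pαhi LMPs, 311, 245 and 255 in OCPs, 207, 181 and 172 in chondroblasts, and 313 and 369 in S9-SCA-1+ cells. Its chondroblast libraries were below all others, with a fold change against S9-JAG1+ LMPs of -1.10 ± 0.11, adjusted p = 1.31e-06, and 31.8% of its 50-base words are shared with other genes, foremost Pcna-ps2. Rpa2, which covers single-stranded DNA, differed by -0.88 ± 0.12, the clamp loader gene Rfc2 by -0.40 ± 0.08 and the polymerase gene Pola1 by -0.23 ± 0.08. Among nucleotide genes, Rrm1 and Tyms differed by -0.76 ± 0.10 and -0.60 ± 0.11. Among chromatin genes, Hells and Chaf1b differed by -0.91 ± 0.08 and -0.93 ± 0.10. Slbp, which binds the stem-loop of histone mRNAs, was at 169.5, 169 and 169.6 CPM in S9-JAG1+ LMPs, 172, 160.3 and 178 in S9-Pαhi LMPs, 173, 146 and 151 in OCPs, 127, 119 and 116 in chondroblasts, and 162 and 174 in S9-SCA-1+ cells. Here the chondroblasts were again the lowest, by -0.49 ± 0.08 against S9-JAG1+ LMPs, while the other 4 populations overlapped. The repair genes Exo1 and Blm differed by -0.89 ± 0.09 and -0.81 ± 0.11.

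The regulators of entry into S phase were lower too. E2f1, an activator of S phase genes, was at 73.3, 81.97 and 84.5 CPM in S9-JAG1+ LMPs, 77.1, 61.9 and 65.6 in S9-Pαhi LMPs, 53.3, 53.97 and 53.4 in OCPs, 48.1, 49.8 and 47.2 in chondroblasts, and 69.4 and 67.4 in S9-SCA-1+ cells. The chondroblasts lay just below the OCPs, and both were below the other 3 populations. The fold change against S9-JAG1+ LMPs was -0.72 ± 0.09, adjusted p = 8.48e-06. Ccne2, cyclin E2, was at 53.4, 56.7 and 58.1 CPM in S9-JAG1+ LMPs, 42.4, 48.6 and 50.3 in S9-Pαhi LMPs, 36.9, 55.4 and 43.7 in OCPs, 38.7, 40.2 and 39.2 in chondroblasts, and 39.3 and 49.6 in S9-SCA-1+ cells. Chondroblasts and S9-JAG1+ LMPs did not overlap (-0.51 ± 0.13, adjusted p = 0.00396), but OCPs and S9-SCA-1+ cells overlapped the chondroblasts, and 17.4% of Ccne2 exon bases lie under antisense exons of Ints8. Dtl, which directs Cdt1 to degradation, differed by -0.51 ± 0.07.

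Of the 26 G2/M genes, 18 were called lower and 1, Nusap1, higher in chondroblasts than in S9-JAG1+ LMPs (median log2 fold change -0.46), where 30.5% and 35.4% of all genes tested were called. Plk1, a kinase of mitotic entry and spindle assembly, was at 231, 191 and 191 CPM in S9-JAG1+ LMPs, 174, 187 and 222 in S9-Pαhi LMPs, 202, 133 and 155 in OCPs, 114, 112 and 120.2 in chondroblasts, and 185 and 173 in S9-SCA-1+ cells. Cdk1, the kinase that drives mitosis, was at 199, 187 and 197 CPM in S9-JAG1+ LMPs, 146, 159.7 and 181 in S9-Pαhi LMPs, 165, 129 and 136 in OCPs, 113, 109 and 118 in chondroblasts, and 154 and 167 in S9-SCA-1+ cells. Cdc20, an activator of the anaphase-promoting complex, was at 235, 231 and 238 CPM in S9-JAG1+ LMPs, 199, 199.5 and 215 in S9-Pαhi LMPs, 245, 176 and 179.7 in OCPs, 137, 131 and 152 in chondroblasts, and 269 and 252 in S9-SCA-1+ cells. All 3 were lower in chondroblasts than in any library of the other populations, with -0.82 ± 0.14, adjusted p = 1.38e-04 for Plk1, -0.78 ± 0.10, adjusted p = 1.35e-05 for Cdk1 and -0.75 ± 0.11, adjusted p = 5.02e-05 for Cdc20. The cyclins moved less. Ccna2 was at 353, 329 and 327 CPM in S9-JAG1+ LMPs, 295, 307 and 347 in S9-Pαhi LMPs, 283, 255 and 279 in OCPs, 232, 217 and 249 in chondroblasts, and 274 and 303 in S9-SCA-1+ cells. Ccnb1 was at 145, 134 and 134 CPM in S9-JAG1+ LMPs, 116, 125 and 129 in S9-Pαhi LMPs, 121, 105 and 112 in OCPs, 88.96, 85.6 and 100.3 in chondroblasts, and 113 and 115 in S9-SCA-1+ cells. The difference from S9-JAG1+ LMPs was -0.53 ± 0.08 for Ccna2 and -0.59 ± 0.08 for Ccnb1, and chondroblasts were below all other libraries in both. Of their 50-base words 12.8% and 40.6% are shared with other genes, foremost Exosc9 and Gm12856.

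Spindle, checkpoint and centromere genes were mixed. Aurka, a spindle pole kinase, was at 139, 129 and 138 CPM in S9-JAG1+ LMPs, 112, 115 and 139 in S9-Pαhi LMPs, 142, 89.4 and 105 in OCPs, 86.1, 81.03 and 91.5 in chondroblasts, and 109.6 and 118 in S9-SCA-1+ cells. OCP replicate 2 lay within the chondroblast range, the other libraries were above it, and the difference from S9-JAG1+ LMPs was -0.65 ± 0.14. The spindle checkpoint genes Bub1 and Bub1b differed by -0.70 ± 0.09 and -0.53 ± 0.08, the passenger genes Aurkb and Birc5 by -0.65 ± 0.09 and -0.41 ± 0.14, and Tacc3, Tpx2, Cenpa, Ndc80 and Kif2c by -0.57 ± 0.07, -0.48 ± 0.09, -0.53 ± 0.12, -0.45 ± 0.12 and -0.56 ± 0.09. Top2a, which untangles chromosomes, was at 1046, 1083 and 1062 CPM in S9-JAG1+ LMPs, 846, 1063 and 948 in S9-Pαhi LMPs, 989, 1038 and 805 in OCPs, 791, 794 and 913 in chondroblasts, and 891 and 879 in S9-SCA-1+ cells. Its ranges in chondroblasts and S9-JAG1+ LMPs were apart (-0.35 ± 0.10, adjusted p = 0.00949), and the libraries of the other populations lay between or across them. Kif11, a spindle motor gene, differed by -0.28 ± 0.09 and cyclin B2 (Ccnb2) by -0.25 ± 0.09. Nusap1, a gene of a microtubule-binding spindle protein, was at 89.7, 87.5 and 89.95 CPM in S9-JAG1+ LMPs, 75.2, 91.2 and 88.3 in S9-Pαhi LMPs, 117, 110.4 and 99.1 in OCPs, 105, 107 and 128 in chondroblasts, and 81.96 and 77.1 in S9-SCA-1+ cells. It was higher in chondroblasts than in S9-JAG1+ LMPs with no overlap (0.35 ± 0.10, adjusted p = 0.00743).

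The 7 G2/M genes without a call in that comparison included markers often used for dividing cells. Mki67, whose protein coats mitotic chromosomes, was at 738, 747 and 761 CPM in S9-JAG1+ LMPs, 564, 812 and 625 in S9-Pαhi LMPs, 621, 1041 and 630.2 in OCPs, 673, 625 and 728 in chondroblasts, and 581 and 535 in S9-SCA-1+ cells. The chondroblasts were below all S9-JAG1+ libraries but within the range of S9-Pαhi LMPs (-0.15 ± 0.17, adjusted p = 0.470). OCP replicate 2, with the high levels of long transcripts, was the highest library. The exons of Mki67 span 10075 bases, and whether length played a part in that value was not tested. Cenpf, a kinetochore gene with 11122 exon bases, was at 313, 341 and 347 CPM in S9-JAG1+ LMPs, 208, 344 and 241 in S9-Pαhi LMPs, 287, 394 and 264 in OCPs, 286, 267 and 317 in chondroblasts, and 229.6 and 204 in S9-SCA-1+ cells. One chondroblast library lay inside the S9-JAG1+ range (-0.20 ± 0.17, adjusted p = 0.318). Ube2c, the ubiquitin-conjugating enzyme of the anaphase-promoting complex with 931 exon bases, was at 191, 141 and 164 CPM in S9-JAG1+ LMPs, 157, 164 and 193 in S9-Pαhi LMPs, 196, 109 and 156 in OCPs, 130, 134 and 151 in chondroblasts, and 156 and 159 in S9-SCA-1+ cells. It was lowest in OCP replicate 2, and chondroblasts overlapped S9-JAG1+ LMPs and OCPs (-0.26 ± 0.17, adjusted p = 0.199 against S9-JAG1+ LMPs), and 22.8% of its exon bases lie under antisense exons of Tnnc2. Cenpe, Kif23, Anln and Hmmr had log2 fold changes of -0.26 ± 0.16, -0.00 ± 0.14, -0.21 ± 0.11 and -0.28 ± 0.17. Without OCP replicate 2, a library of neither population, 22 G2/M genes were called lower, while calls of lower genes in the whole table went from 4618 to 5367 and the median of all genes from 0.05 to 0.01. The cause was not tested.

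Transcript length moved with this comparison. Among 8126 genes at 20 CPM or more, genes with at most 2118 exon bases had a median log2 fold change of -0.34 between chondroblasts and S9-JAG1+ LMPs, and genes with at least 4964.75 bases one of 0.05. The median length was 3019 bases for the S phase genes and 3020.5 for the G2/M genes. With a trend on length removed in each library, 28 S phase and 21 G2/M genes were called lower, and the S phase median was -0.77. This alternative was added after the data had been seen. It called 26.3% of all genes tested lower and 40.8% higher. Ccnb2 and Gins2 then had log2 fold changes of 0.02 and 0.08.

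**Figure D3:**
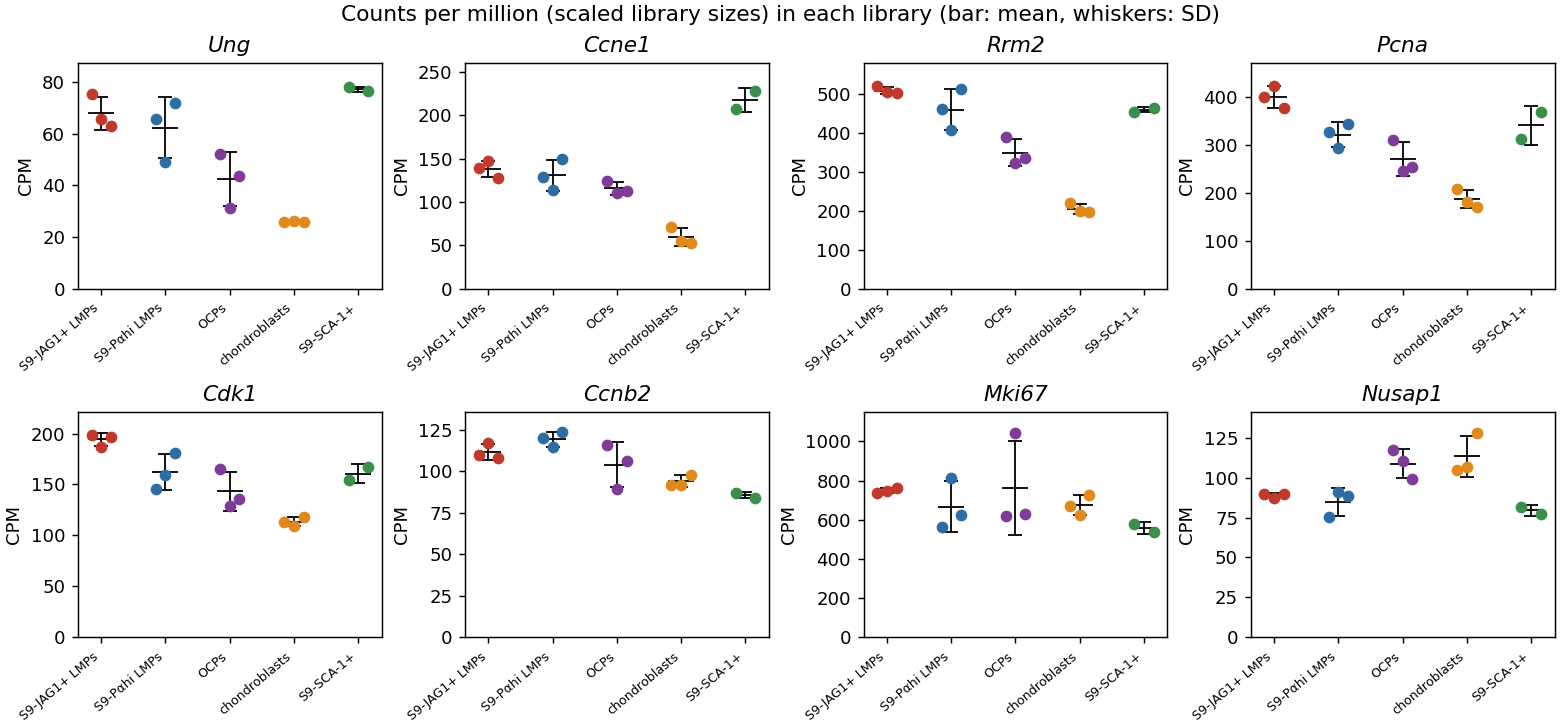
CPM of 8 genes in each library by population, on linear axes that start at 0. Points are libraries, horizontal bars are means and whiskers are SD. Ung, Ccne1, Rrm2, Pcna and Cdk1 are lowest in chondroblasts, Ccnb2 is lowest in S9-SCA-1+ cells, Mki67 has 1 OCP library at 1041 CPM, and Nusap1 is highest in chondroblasts and OCPs.

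Chondroblasts were also lower than OCPs, which share their gate and differ in stage. Of the S phase genes 26 of 29 were called lower, and of the G2/M genes 15 of 26, where 16.5% of all genes tested were called lower and 18.3% higher. The median log2 fold changes were -0.42 and -0.30, against -0.02 over all genes tested. In the other direction 0 S phase and 0 G2/M genes were called, with 0 of each at an unadjusted p under 0.05 and 0 of each in DESeq2. The chondroblasts fell below the OCPs with no overlap for 28 S phase and 13 G2/M genes, a count not made over all genes tested. Past the fold limit lay 0 of the 55 genes, beside 1.16% of all genes tested that were lower and 6.60% that were higher. The largest S phase differences were in Ccne1 (-0.96 ± 0.12, adjusted p = 8.28e-05), Rrm2 (-0.77 ± 0.09, adjusted p = 5.49e-05) and Ung (-0.71 ± 0.16, adjusted p = 0.00610). The 3 S phase genes without a call were Mcm4 (-0.17 ± 0.08), Ccne2 (-0.20 ± 0.13) and E2f1 (-0.15 ± 0.09). Among G2/M genes Bub1b moved most (-0.53 ± 0.08, adjusted p = 2.84e-04), at 289.6, 271 and 287 CPM in S9-JAG1+ LMPs, 269, 288 and 294 in S9-Pαhi LMPs, 316, 255 and 278 in OCPs, 196, 191 and 201 in chondroblasts, and 277 and 283 in S9-SCA-1+ cells. It was apart from all other libraries in chondroblasts and level among the other 4 populations. Cdc20 (-0.52 ± 0.11, adjusted p = 0.00362) and Plk1 (-0.50 ± 0.14, adjusted p = 0.0143) came next. Nusap1 did not pass here (0.06 ± 0.10, adjusted p = 0.703). Without chondroblast replicate 2 the G2/M count was 9, and without OCP replicate 2 the counts were 27 and 16. Lower calls over all genes were 1686 and 3766 in these fits, against 2494 with all libraries. Short genes had a median log2 fold change of -0.21 in this comparison and long genes of 0.02. With the length trend removed the counts were 24 and 13, where 13.1% of all genes tested were called lower. This comparison and that with S9-JAG1+ LMPs share the chondroblast libraries.

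**Figure D4:**
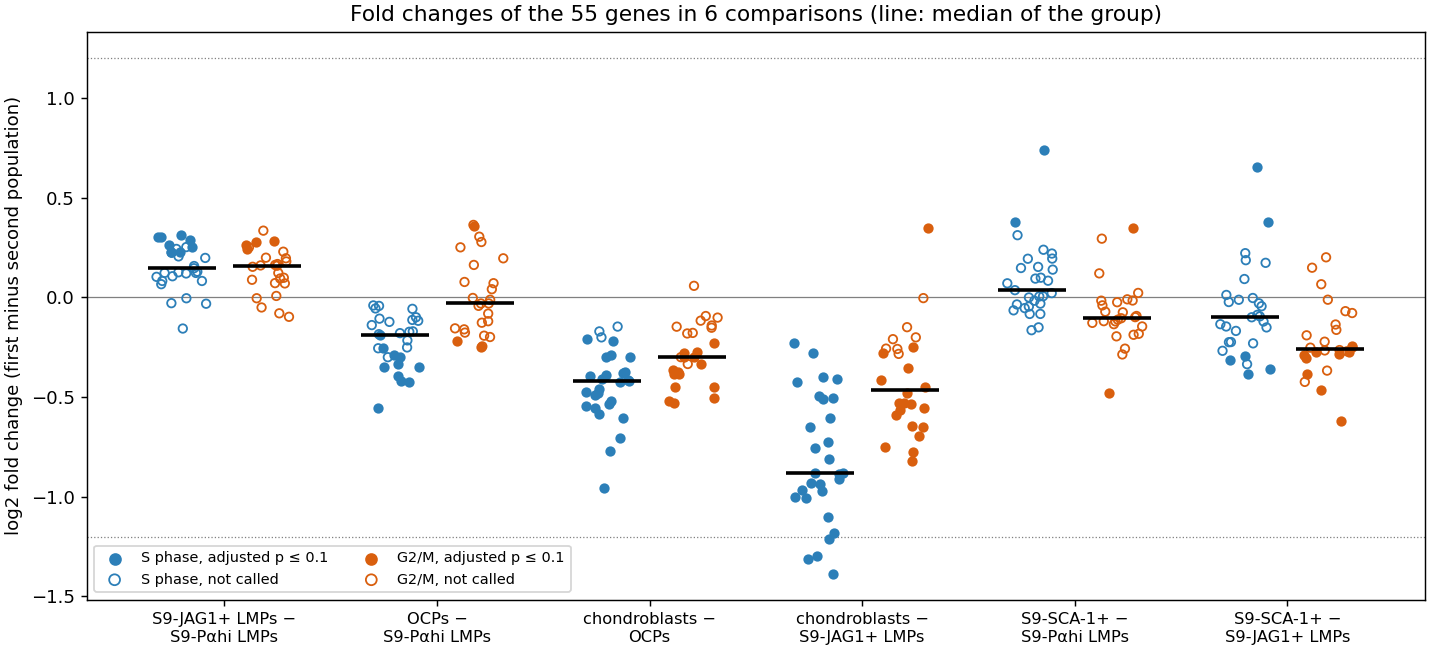
Log2 fold change of each of the 55 genes (points) in 6 comparisons, S phase genes in blue and G2/M genes in orange. Filled points were called (adjusted p no higher than 0.1), black lines are group medians and dotted lines mark 1.2 and -1.2. The lowest points are in chondroblasts against S9-JAG1+ LMPs, with group medians of -0.88 and -0.46, and the comparisons share populations.

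In the gates given above, OCPs and S9-Pαhi LMPs differ by Sox9, and only S9-Pαhi LMPs were also selected as negative for JAG1 and SCA-1. OCPs differed from S9-Pαhi LMPs mainly in S phase genes. Of these 11 of 29 were called lower in OCPs, where 8.35% of all genes tested were called lower and 11.8% higher (median log2 fold change -0.19, against 0.02 over all genes). In the other direction 0 were called, with 0 at an unadjusted p under 0.05 and 0 in DESeq2. Past the fold limit lay 0 of the 55, beside 1.36% of all genes tested in the lower and 3.48% in the higher direction. Of the G2/M genes, 2 were called lower (Ccna2 and Aurkb) and 1 higher (Nusap1), not above the shares of all genes, with a median of -0.03. The 11 were Ung (-0.55 ± 0.16, adjusted p = 0.0375), Uhrf1 (-0.43 ± 0.10, adjusted p = 0.0157), Cdc6 (-0.42 ± 0.12, adjusted p = 0.0306), Rrm2, Cdc45, E2f1, Mcm3, Mcm5, Exo1, Mcm2 and Dtl. Their log2 fold changes ran from -0.55 for Ung to -0.19 for Dtl. OCPs and S9-Pαhi LMPs did not overlap for 6 of them, Rrm2, Cdc45, Uhrf1, Dtl, E2f1 and Exo1, while for Mcm2, Mcm3, Mcm5, Ung and Cdc6 OCP replicate 1 lay within the S9-Pαhi range. In G2/M, Nusap1 was 0.36 ± 0.10 higher with no overlap, Aurkb, at 126, 116 and 115 CPM in S9-JAG1+ LMPs, 106, 108 and 119 in S9-Pαhi LMPs, 108, 88.6 and 84.3 in OCPs, 75.7, 77.3 and 74.96 in chondroblasts, and 99.7 and 101 in S9-SCA-1+ cells, was -0.25 ± 0.09 with overlap, and Ccna2 was -0.22 ± 0.08 with none. The counts depended on single libraries, as did calls over the whole table. Of all genes tested, 1263 were called lower with all libraries, 2608 without OCP replicate 1 and 630 without S9-Pαhi replicate 3. The S phase count was 18 without OCP replicate 1, 7 without OCP replicate 3, 7 without S9-Pαhi replicate 1 and 4 without S9-Pαhi replicate 3. Without OCP replicate 2 it was 10, and the G2/M count was 0. The count of higher G2/M genes was 0 without S9-Pαhi replicate 1 and 2 without OCP replicate 1, OCP replicate 3 or S9-Pαhi replicate 2. The count of lower G2/M genes was 10 without OCP replicate 1 and 0 or 1 without each of 11 other libraries. A fit of the 6 OCP and S9-Pαhi libraries alone called 0 of these genes in either direction. That fit called 478 of 13914 genes lower and 818 higher. Length moved here too, with a median log2 fold change of -0.12 for short genes and 0.06 for long genes. With the trend removed 12 S phase and 0 G2/M genes were called lower, beside 9.57% of all genes tested.

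S9-JAG1+ LMPs were higher than S9-Pαhi LMPs in 8 of 29 S phase and 4 of 26 G2/M genes. Of all genes tested 12.8% were called higher and 15.2% lower, so that the G2/M count is near the share of all genes. The medians were 0.15 and 0.16, against 0.00 over all genes tested. In the other direction 0 genes of either group were called, with 0 of each at an unadjusted p under 0.05 and 0 of each in DESeq2. Of the calls 0 were past the fold limit, where 2.58% of all genes tested were higher and 4.42% lower. The S phase genes were Pcna (0.31 ± 0.11, adjusted p = 0.0516), Blm (0.30 ± 0.11, adjusted p = 0.0591), Mcm2 (0.30 ± 0.09, adjusted p = 0.0251), Uhrf1, Mcm3, Hells, E2f1 and Cdc45. Blm, a DNA helicase of recombination repair, was at 147, 165 and 162 CPM in S9-JAG1+ LMPs, 115, 141 and 129 in S9-Pαhi LMPs, 112, 136 and 108 in OCPs, 92.99, 79.6 and 98.01 in chondroblasts, and 124 and 123 in S9-SCA-1+ cells. All S9-JAG1+ values were above all S9-Pαhi values for 7 of the 8, E2f1 being the exception. The G2/M genes were Bub1 (0.28 ± 0.09, adjusted p = 0.0309), Anln (0.28 ± 0.11, adjusted p = 0.0771), Cdk1 (0.26 ± 0.10, adjusted p = 0.0729) and Kif2c (0.24 ± 0.09, adjusted p = 0.0728), with no overlap in any of them. Bub1, a spindle checkpoint kinase, was at 249, 249 and 255 CPM in S9-JAG1+ LMPs, 187, 219 and 214 in S9-Pαhi LMPs, 194, 226 and 188 in OCPs, 155, 149 and 161 in chondroblasts, and 173 and 191 in S9-SCA-1+ cells. Anln, a cytokinesis scaffold, was at 159.9, 151 and 144 CPM in S9-JAG1+ LMPs, 105, 136 and 135 in S9-Pαhi LMPs, 138, 158 and 124 in OCPs, 129, 131 and 133 in chondroblasts, and 128 and 118 in S9-SCA-1+ cells. The 3 S9-Pαhi libraries spread widely in Anln. These counts also depended on single libraries, as did calls over the whole table. Of all genes tested, 1939 were called higher with all libraries, 1365 without S9-JAG1+ replicate 2 and 2523 without OCP replicate 2. The S phase count was 1 without S9-JAG1+ replicate 2, 2 without S9-JAG1+ replicate 3, 2 without S9-Pαhi replicate 1 or replicate 2, 5 without S9-JAG1+ replicate 1, OCP replicate 3 or any 1 chondroblast library, and 12 without OCP replicate 2. Short genes had a median log2 fold change of 0.02 in this comparison and long genes of 0.04. The G2/M count was 0 without S9-Pαhi replicate 1 or S9-JAG1+ replicate 3, 1 without S9-JAG1+ replicate 2, 2 without S9-JAG1+ replicate 1 or chondroblast replicate 1, and 6 without OCP replicate 2.

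S9-SCA-1+ cells, high in myogenic markers, were close to S9-Pαhi LMPs in most of the 55 genes. Against S9-Pαhi LMPs 2 S phase genes were called higher, Ccne1 (0.74 ± 0.13, adjusted p = 8.43e-04) and Cdc6 (0.38 ± 0.13, adjusted p = 0.0463), where 15.2% of all genes tested were called in each direction. In the other direction 0 were called, with 0 at an unadjusted p under 0.05 and 0 in DESeq2, and the median was 0.04. None of the 55 passed the fold limit (0 genes, beside 4.96% higher and 5.58% lower among all genes tested). In G2/M, Cdc20 was called higher (0.35 ± 0.12, adjusted p = 0.0518) and Ccnb2 lower (-0.48 ± 0.10, adjusted p = 0.00242), and the median was -0.10. Ccnb2 was at 109.8, 117 and 108 CPM in S9-JAG1+ LMPs, 119.8, 115 and 124 in S9-Pαhi LMPs, 116, 89.4 and 106 in OCPs, 91.6, 91.98 and 98.1 in chondroblasts, and 86.9 and 84.2 in S9-SCA-1+ cells. Both S9-SCA-1+ libraries were below all others in Ccnb2, and both were above all others in Ccne1 and Cdc20. Without S9-SCA-1+ replicate 3, the library with red blood cell transcripts, 1 S phase gene (Ccne1) and 0 G2/M genes were called higher, and without S9-Pαhi replicate 2 the S phase count was 1. The call of Cdc20 was also lost without S9-SCA-1+ replicate 2, S9-Pαhi replicate 1 or S9-Pαhi replicate 2. Without OCP replicate 2 the G2/M counts were 2 higher and 2 lower, and without S9-Pαhi replicate 1 there were 2 lower. Short genes had a median log2 fold change of 0.11 and long genes of -0.08. The parts of red blood cells and of transcript length in these values were not tested.

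Against S9-JAG1+ LMPs the S9-SCA-1+ cells were lower in 10 of 26 G2/M genes. Of the 29 S phase genes 4 were called lower and 2 higher. Of all genes tested 15% were called lower and 16.2% higher, so that the S phase counts do not exceed these shares. Past the fold limit were 0 of the 55 genes, and of all genes tested 4.91% were lower and 6.53% higher. In G2/M 0 were called higher, with 0 at an unadjusted p under 0.05 and 0 in DESeq2. The medians were -0.26 for G2/M and -0.10 for S phase. Cenpf (-0.62 ± 0.19, adjusted p = 0.0283), Bub1 (-0.46 ± 0.10, adjusted p = 0.00241) and Ccnb2 (-0.38 ± 0.10, adjusted p = 0.0102) moved most, and Anln, Kif11, Kif2c, Ccnb1, Cdk1, Tpx2 and Aurkb were also called. Short genes had a median log2 fold change of 0.09 in this comparison and long genes, of which Cenpf with its 11122 exon bases is one, of -0.12. With the length trend removed 9 G2/M genes were called lower, beside 14.5% of all genes tested. The log2 fold change of Cenpf was then -0.44 (adjusted p = 0.0202 in edgeR). The lower S phase genes were Mcm2 (-0.39 ± 0.10, adjusted p = 0.0104), Blm (-0.36 ± 0.12, adjusted p = 0.0439), Hells and Mcm4. Called higher were 2 S phase genes, Ccne1 (0.66 ± 0.13, adjusted p = 0.00187) and Gins2 (0.38 ± 0.12, adjusted p = 0.0298). Gins2, a helicase cofactor with antisense exons of Gse1, was at 47.5, 42.4 and 43.1 CPM in S9-JAG1+ LMPs, 49.3, 45.4 and 53.5 in S9-Pαhi LMPs, 55.7, 41.04 and 45.5 in OCPs, 37.8, 36.6 and 35.3 in chondroblasts, and 55.6 and 59.4 in S9-SCA-1+ cells. S9-SCA-1+ cells were above S9-JAG1+ LMPs and chondroblasts but met the OCP range. Without either S9-SCA-1+ library fewer G2/M genes were called lower, and so were fewer genes over the whole table. Such a fit leaves 1 library in the group, which is assumed to vary like the other groups. Without S9-SCA-1+ replicate 2 the median log2 fold change of the G2/M genes was -0.22. The G2/M count was 5, 4 and 5 without S9-JAG1+ replicate 1, 2 and 3, and 16 without OCP replicate 2. Lower calls over all genes were 2161, 1885, 1813 and 2864 in these 4 fits, against 2272 with all libraries. The S phase count of lower genes was 2 without S9-SCA-1+ replicate 2, 7 without OCP replicate 1 and 8 without OCP replicate 2, and that of higher genes was 1 without S9-SCA-1+ replicate 3 or S9-JAG1+ replicate 2. This comparison shares samples with that against S9-Pαhi LMPs and with those of S9-JAG1+ LMPs.

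Other genes of the same processes, from lists of 46 replication and 55 mitosis genes, gave counts in the same directions in chondroblasts. Against S9-JAG1+ LMPs 44 of the 46 and 47 of the 55 were called lower, where 30.5% of all genes tested were, and against OCPs 40 and 36, where 16.5% were. The replication genes with the largest changes against S9-JAG1+ LMPs were Mcm10 (-1.45 ± 0.08, adjusted p = 1.23e-08), which helps to start forks, Dut (-1.16 ± 0.16, adjusted p = 3.55e-05), which removes dUTP, and Orc1 (-1.14 ± 0.14, adjusted p = 1.17e-05), of the origin recognition complex. The mitosis genes were Mybl2 (-1.14 ± 0.08, adjusted p = 8.71e-08), a transcription factor of G2/M genes, Nek2 (-1.03 ± 0.11, adjusted p = 2.33e-06) and Melk (-0.84 ± 0.10, adjusted p = 5.70e-06). In S9-JAG1+ against S9-Pαhi LMPs 11 replication genes were called higher and 1 lower (E2f8, -0.42 ± 0.08), and 12 mitosis genes were called higher, beside 12.8% higher and 15.2% lower of all genes tested. In OCPs against S9-Pαhi LMPs 10 replication and 4 mitosis genes were called lower and 1 mitosis gene higher, beside 8.35% lower and 11.8% higher of all genes. In S9-SCA-1+ cells, 1 replication gene was called higher against either LMP population, E2f2 (0.70 ± 0.11 and 0.76 ± 0.11), where 15.2% of all genes were called higher against S9-Pαhi and 16.2% against S9-JAG1+ LMPs. Called lower against S9-JAG1+ LMPs were 14 replication and 21 mitosis genes, where 15% of all genes were, and 2 and 6 were lower against S9-Pαhi LMPs, shares below the 15.2% of all genes.

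The 12 regulators of G1 phase were called in both directions. In chondroblasts against S9-JAG1+ LMPs 7 were called higher and 3 lower, where 35.4% and 30.5% of all genes tested were, so that the count of lower genes is near the share of all genes. Cdkn1c, an inhibitor of cyclin-dependent kinases (p57), was at 293, 274 and 279 CPM in S9-JAG1+ LMPs, 576, 509 and 406 in S9-Pαhi LMPs, 1030, 1006 and 1031 in OCPs, 1112, 1086 and 1029 in chondroblasts, and 684 and 678 in S9-SCA-1+ cells. It was lowest in S9-JAG1+ LMPs and highest in OCPs and chondroblasts, which overlapped, with 1.93 ± 0.10, adjusted p = 5.55e-09 for chondroblasts against S9-JAG1+ LMPs and 1.04 ± 0.10, adjusted p = 1.59e-05 for OCPs against S9-Pαhi LMPs. Cdkn1b (p27) was 0.96 ± 0.09 and Cdkn2c (p18) 2.07 ± 0.26 higher in chondroblasts than in S9-JAG1+ LMPs, as were the D cyclins Ccnd1 (0.42 ± 0.12) and Ccnd2 (0.76 ± 0.12) and the Rb relatives Rbl1 (0.35 ± 0.09) and Rbl2 (1.13 ± 0.18). Cdk6 (-1.35 ± 0.09), Cdk4 (-0.39 ± 0.13) and Ccnd3 (-0.35 ± 0.12) were lower. Cdkn1a, the inhibitor p21, was at 1.88, 1.38 and 1.67 CPM in S9-JAG1+ LMPs, 1.71, 0.790 and 0.797 in S9-Pαhi LMPs, 1.42, 0.285 and 0.977 in OCPs, 0.942, 1.198 and 1.06 in chondroblasts, and 62.7 and 64.3 in S9-SCA-1+ cells. It was apart in S9-SCA-1+ cells, with a log2 fold change of 5.84 ± 0.34, adjusted p = 1.76e-08 against S9-Pαhi LMPs, and near the level that 3 reads give (0.10 to 0.15 CPM) in OCP replicate 2. Against OCPs 4 G1 regulators were called higher in chondroblasts and 1 lower, beside 18.3% and 16.5% of all genes. In S9-JAG1+ against S9-Pαhi LMPs 1 was called higher (Cdk6, 1.61 ± 0.09) and 3 lower, beside 12.8% and 15.2%. In OCPs against S9-Pαhi LMPs 4 were called higher and 1 lower, beside 11.8% and 8.35%. In S9-SCA-1+ cells 3 were called higher and 3 lower against each LMP population, beside 15.2% in each direction for S9-Pαhi LMPs and 16.2% and 15% for S9-JAG1+ LMPs.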

How the data were processed

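Gene-level read counts were analysed for 14 RNA-seq libraries of 5 sorted mouse forelimb bud populations. The authors deposited whole-number counts of reads per gene, not normalized, with an Entrez identifier for each gene and its exon length in bases. According to the study's methods, single reads of poly(A)+ libraries were aligned with STAR to mm10, keeping 1 position for a read that fits several, and counted in exons of RefSeq mRNAs with QuasR (1.18.0). Whether counting used strand is not given in the sources used here. Symbols and positions came from GRCm38 annotation, which matched 24374 of 24454 identifiers; the other 80 held 0.358% of counts.

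The members were listed by gene function, with no measured value as a criterion, but they, the lists of other genes and the comparisons were chosen with earlier results of these data known. All 55 genes may be named; values in every library are given for 20 genes fixed by role and, in each comparison, for the 3 genes of each group with the largest called change.

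Counts were tested with edgeR 4.0.16 in R 4.3.3: filterByExpr by population (15125 genes), TMM factors (0.957 to 1.06), 1 quasi-likelihood fit of all 14 libraries with a mean for each population (biological coefficient of variation 13.4%), F tests of 6 pairs and of all 5 populations, and Benjamini-Hochberg adjustment over all 15125 genes. Calls are of genes whose adjusted p did not exceed 0.1. The SE is the absolute log2 fold change over the root of the F statistic. Levels are given as CPM with scaled totals, and log2 CPM used a prior count of 2. Replicates are biological according to the study. Chi-square values of replicate pairs exceeded counting noise, so that none was counted as a duplicate. Intervals were not given. Each gene had 656 or more reads in any library, but counting error was not compared with the spread between libraries gene by gene. Some spreads were very small, such as that of Ung in chondroblasts (mean 25.96, SD 0.31 CPM).

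Alternatives were DESeq2 1.42.0 (size factors and test), library totals, no filter on low counts, an adjusted p limit of 0.05, fits of the compared groups alone, the replicate number as a block, and leaving out each library. A removed trend on transcript length was added after the data were seen. Shared 50-base words and antisense exons were counted in GRCm38 transcripts, and promoter letters in RefSeq windows.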

Additional observations from a re-analysis of the deposited data

How the results depend on the processing

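Counts are of genes called in each comparison, under 1 changed setting at a time. The calls of 135 gene and comparison pairs all passed in DESeq2 and with DESeq2's size factors, and 16 were lost with library totals, 9 without the filter, 23 in fits of the compared groups alone, 27 at an adjusted p limit of 0.05, 3 with the block and 10 with the length trend removed, all in the same direction. In addition, with the length trend removed 2 changed sign between chondroblasts and S9-JAG1+ LMPs, Gins2 (0.0772) and Ccnb2 (0.016). Library totals moved the median of all genes in that comparison from 0.05 to 0.18.

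For OCPs against S9-Pαhi LMPs, G2/M genes called lower were 2, and 1 with library totals, 0 without the filter, 0 at 0.05, 0 in the 6 libraries alone and 0 with the length trend removed. S phase genes called lower were 7 at 0.05, beside 784 of all 15125 genes tested, and 0 in the 6 libraries alone. That fit called 0 G2/M genes higher, and it called 478 of 13914 genes lower. For S9-JAG1+ against S9-Pαhi LMPs, a limit of 0.05 left 2 S phase and 1 G2/M genes, beside 1452 of all 15125 genes tested called higher. For S9-SCA-1+ cells against S9-JAG1+ LMPs, 4 G2/M genes remained lower at 0.05, beside 1784 of all 15125 genes tested. A fit of both groups alone called 10 S phase and 17 G2/M genes lower, beside 2728 of 14156 genes tested. For S9-SCA-1+ cells against S9-Pαhi LMPs, 0 G2/M genes were higher at 0.05, beside 1857 of all 15125 genes tested. With the length trend removed 1 S phase gene was lower and the G2/M counts were 2 higher and 2 lower. That setting called 18.1% of all genes tested higher and 15% lower.

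Deviations from the population mean were correlated at -0.18 to 0.31 (median -0.005) over 26 pairs with the same replicate number. Over 52 pairs with different numbers the correlation was -0.31 to 0.41 (median -0.003). With 2 or 3 libraries per population these values cannot tell whether samples came from the same pool. With the replicate block 6 S phase genes, against 2 without it, were called higher when S9-SCA-1+ cells were compared with S9-Pαhi LMPs. Of all 15125 genes tested the block called 2574 higher in that comparison, against 2303 without it. No other count of S phase or G2/M genes moved by over 1.5 times with the block. With library totals the group levels were -0.44 in chondroblasts and 0.26 in S9-JAG1+ LMPs for S phase, and -0.16, 0.14 and -0.0621 (S9-SCA-1+ cells) for G2/M. Of all genes called between chondroblasts and OCPs 52.6% were higher, 66.5% with library totals and 62.8% with the length trend removed.

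Leaving out 1 library gave 1 to 12 S phase and 0 to 6 G2/M genes higher in S9-JAG1+ than in S9-Pαhi LMPs. It gave 4 to 18 S phase and 0 to 10 G2/M genes lower in OCPs than in S9-Pαhi LMPs. Of all genes tested it gave 630 to 2608 lower, and of G2/M genes 0 to 2 higher. In chondroblasts it gave 23 to 27 and 9 to 16 lower than in OCPs, and 28 to 29 and 18 to 22 lower than in S9-JAG1+ LMPs. In S9-SCA-1+ cells against S9-Pαhi LMPs it gave 1 to 3 S phase genes higher, 0 to 2 G2/M genes higher and 1 to 2 lower, and against S9-JAG1+ LMPs 1 to 2 S phase genes higher, 2 to 8 lower and 2 to 16 G2/M genes lower. The causes of these changes were not tested. All 55 genes had 656 or more reads in each library, and each group held 2 or 3 libraries. How depth and the number of libraries limit these counts was not tested.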
